A study of Mus musculus with 8 samples.

Results

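The Paneth cell antimicrobial genes described here are 9 genes: *Lyz1*, *Mmp7*, *Ang4*, *Itln1*, *Mptx2*, *Defa17*, *Defa22*, *Defa24* and *Defa30*. They were chosen by symbol for their products, with no cut on a measured value, but with earlier results of these data known. All 9 were listed in crypts, among 11554 genes, and in villi, among 12701 genes. Small-intestinal crypts and villi were taken from C57BL/6 mice in which COX1 and COX2, the enzymes of prostaglandin synthesis encoded by *Ptgs1* and *Ptgs2*, had been deleted in Gli1+ mesenchymal cells (Gli1-PtgscKO), and from control mice (Ctrl), and bulk RNA was sequenced. The deletion was driven by the tamoxifen-inducible *Gli1-CreERT2* allele in floxed *Ptgs1* and *Ptgs2* mice, 1 month after tamoxifen, so the genotype differed in the mesenchyme and not by design in the epithelium that was sequenced. The Ctrl samples carried the genotype label WT, the protocol named *Gli1-CreERT2*; *Rosa26-tdTomato* mice as their source, and a figure legend of the study described Ctrl animals as floxed without Cre. Whether the Ctrl mice carried Cre could therefore not be settled. Ages were not given in the sources used here. Each group was labelled as 2 samples, the study calling them biological replicates, but the Ctrl villus columns held identical values for all 12701 genes and were counted as 1 library.

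Paneth cells sit at the base of the crypts of the small intestine, between the Lgr5+ stem cells, and release granules of antimicrobial proteins into the crypt lumen. Lysozyme cuts bacterial cell walls. The alpha-defensins (cryptdins in the mouse) are small cationic peptides that damage bacterial membranes, and *Mmp7*, matrilysin, cuts their inactive precursors to the mature peptides. *Ang4* is an antibacterial ribonuclease of the angiogenin family, *Itln1* a lectin that binds microbial sugars and is also made by goblet cells, and *Mptx2* a mucosal pentraxin. Wnt signals promote Paneth cell fate, and the surrounding mesenchyme is a known source of such signals.

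The 4 defensin members lie in the alpha-defensin cluster on the plus strand of chromosome 8, at chr8:21655780-21656735 (*Defa17*), chr8:21162277-21163249 (*Defa22*), chr8:21734494-21735471 (*Defa24*) and chr8:21134642-21135598 (*Defa30*) in GRCm38. *Lyz1* lies at chr10:117287797-117292868, *Mmp7* at chr9:7692090-7699585, *Ang4* at chr14:51763878-51773590, *Itln1* at chr1:171518122-171535294 and *Mptx2* at chr1:173274382-173277777. The 4 defensin coding sequences are each 282 bases long. Their last 111 bases, taken from exonic sequence in GENCODE M21, hold the part that encodes the mature peptide and end in the stop codon. They are shown because read assignment among these genes rests on their differences, and capitals mark the 42 positions at which the 4 genes are not all alike.
Defa17: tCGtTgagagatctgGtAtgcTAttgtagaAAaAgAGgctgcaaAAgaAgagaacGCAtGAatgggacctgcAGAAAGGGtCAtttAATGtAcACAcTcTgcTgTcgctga
Defa22: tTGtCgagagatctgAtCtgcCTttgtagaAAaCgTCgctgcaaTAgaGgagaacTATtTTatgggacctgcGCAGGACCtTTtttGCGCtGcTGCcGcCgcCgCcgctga
Defa24: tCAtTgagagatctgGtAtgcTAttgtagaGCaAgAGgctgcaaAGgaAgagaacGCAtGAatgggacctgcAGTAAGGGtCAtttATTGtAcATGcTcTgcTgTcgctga
Defa30: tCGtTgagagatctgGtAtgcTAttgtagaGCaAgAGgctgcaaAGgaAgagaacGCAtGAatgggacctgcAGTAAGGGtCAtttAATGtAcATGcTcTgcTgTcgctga
*Defa24* and *Defa30* differed at 4 of 282 coding bases and *Defa17* and *Defa30* at 8, whereas *Defa22* differed from the other members at 51 to 58. *Defa22* in turn differed from *Defa21* at only 2 coding bases, and *Defa17* and *Defa3* had the same coding sequence. Of all 100-base windows of the longest annotated transcript, 90.6% of those of *Defa17* occurred unchanged in another gene, *Defa3* first, and 40.3% of those of *Defa22* occurred in *Defa21*. The share was 0.334% for *Defa30* and none of 320 windows for *Defa24*. *Lyz1* shared 2.06% of its windows with *Lyz2* and *Mptx2* shared 3.31% with *Mptx1*, while *Mmp7*, *Ang4* and *Itln1* shared none. How reads common to several genes were assigned is not given in the sources used here, so the values of *Defa17* and *Defa22* are uncertain, and they were also summed with their near copies.

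Upstream sequence was matched in RefSeq (GRCm38.p6) for 7 of the 9 members. In the 250 bases before the start site, the core of TCF/LEF sites, through which Wnt signals act on genes (CTTTG, or CAAAG on the other strand), was found in 6 of these 7 promoters, against 48.6% of all 32851 promoters. The TATA box (TATAAA, or TTTATA) was found in 3 of 7, against 12.4% of all promoters. Neither motif overlaps the other. The promoters of *Defa22* (chr8:21162027-21162276) and *Defa30* (chr8:21134400-21134649), both on the plus strand, are shown because these defensins stood furthest from Ctrl in one crypt library below. Each held 3 TCF/LEF cores and 1 TATA box, in capitals. A match of letters is no evidence of binding.
Defa22: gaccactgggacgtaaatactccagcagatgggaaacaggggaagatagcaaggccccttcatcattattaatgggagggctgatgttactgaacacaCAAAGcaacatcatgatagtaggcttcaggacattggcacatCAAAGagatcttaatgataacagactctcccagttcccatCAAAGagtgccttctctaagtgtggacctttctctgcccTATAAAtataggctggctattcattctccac
Defa30: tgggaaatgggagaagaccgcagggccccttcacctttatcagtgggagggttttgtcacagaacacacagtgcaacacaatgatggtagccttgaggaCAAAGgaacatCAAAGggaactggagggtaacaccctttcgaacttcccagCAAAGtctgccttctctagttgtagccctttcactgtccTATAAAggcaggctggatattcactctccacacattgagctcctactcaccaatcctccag

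Reads on listed genes numbered 16853017 to 21121714 in the 4 crypt libraries and 13477600 to 15751024 in the 3 distinct villus libraries. *Ptgs1* was read at 365 and 164 normalised counts in Ctrl crypts and at 178 and 199 in Gli1-PtgscKO crypts, and since the deletion lies in mesenchymal cells this is no check of the labels. *Ptgs2* and Gli1 were not analysed here. The summed level of 12 enterocyte markers was 107214 to 162408 normalised counts in crypts and 392258 to 539009 in villi, and that of 9 stem cell markers was 96912 to 109071 in crypts and 3109 to 5296 in villi. The crypt and villus labels were thus met by the markers. Of 11 mesenchymal markers 8 were listed in crypts, with a sum of 9117 to 16985 normalised counts that overlapped between genotypes. In the Gli1-PtgscKO crypt replicate 1 library short transcripts were over-represented against the other crypt libraries, and in the Ctrl villus library against both Gli1-PtgscKO villus libraries; the values are given with the results they touch.

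The 9 genes made up a large part of the crypt transcriptome. Together they took 2.77% (95% Wilson interval 2.76 to 2.77%) of the reads on listed genes in Ctrl replicate 1 and 2.26% (2.26 to 2.27%) in Ctrl replicate 2. In Gli1-PtgscKO crypts they took 4.16% (4.15 to 4.17%) in replicate 1 and 2.26% (2.26 to 2.27%) in replicate 2. These intervals cover counting error only. One mutant library was thus above both controls, and the other matched the lower control.

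Per kilobase of the longest transcript, *Defa24* stood highest among the members in Ctrl crypts, at 10643 ± 1386 CPM per kilobase (SD, n = 2; CPM, counts per 1000000 reads on listed genes), followed by *Lyz1* at 9278 ± 1361. Within each Ctrl library *Defa24* stood above *Lyz1*, at 11623 beside 10240 in replicate 1 and 9663 beside 8315 in replicate 2, although their ranges overlapped. In Gli1-PtgscKO replicate 2 the order was the other way, at 8503 beside 9038. With 2 Ctrl libraries their order is not settled. *Itln1* followed at 3846 ± 310 and *Defa30* at 3157 ± 603, then *Defa22* at 1958 ± 11.2 and *Ang4* at 1862 ± 376, a pair that again overlapped. *Defa17* stood at 1416 ± 196 and *Mptx2* at 626 ± 362 on the same scale. *Mmp7*, the protease, was the lowest at 129 ± 20.6, so the enzyme that matures the cryptdins was far less abundant as RNA than its substrates.

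The first question was whether loss of mesenchymal COX changed these genes in crypts. No member differed between genotypes beyond the spread between libraries. All 9 fitted fold changes were positive, at 0.04 to 0.68 on the log2 scale, but the groups overlapped for each of the 9 genes. Every member had an adjusted p of 0.9996 (limma-trend, Benjamini-Hochberg over all genes). Across all genes, 0 of 11554 (0%) passed an adjusted p of 0.05, 73 had an unadjusted p under 0.05 and none of these was a member. DESeq2 on the recovered reads called 11 genes, again with no member, and gave 2 members an unadjusted p under 0.05, while edgeR called 0. The threshold of the study was an unadjusted p under 0.01 with a log2 change over 1, which the study applied to DESeq2 results. With limma-trend it was passed by 20 genes upwards (0.173%) and 1 downwards (0.00866%), and by 0 of 9 members. With DESeq2 on the recovered reads 65 genes passed it, again with 0 members. In bulk tissue, fewer Paneth cells and less RNA per cell cannot be told apart, and neither can more cells and more RNA per cell. By immunofluorescent staining, which counts cells and not RNA, the study reported fewer Lyz1+ Paneth cells in Gli1-PtgscKO small intestine.

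**Figure D1:**
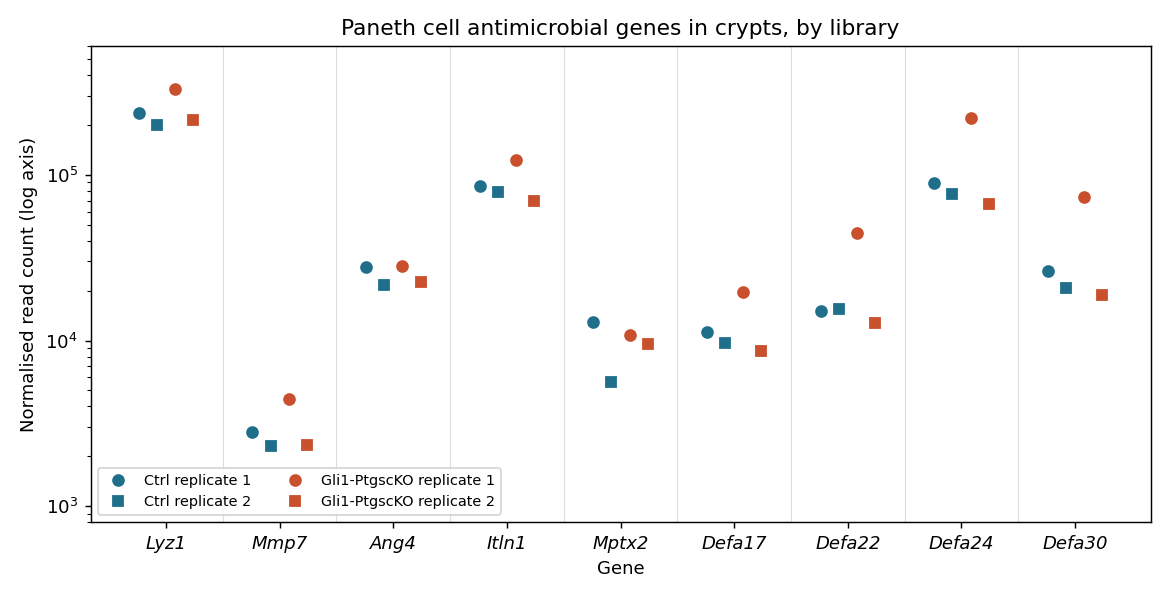
Normalised read count (log axis) of each gene in the 4 crypt libraries, one point per library. Gli1-PtgscKO replicate 1 lies above both Ctrl libraries for 8 of the 9 genes, and Gli1-PtgscKO replicate 2 lies above both for none.

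*Lyz1*, the lysozyme of Paneth cells, was read at 237436 and 199679 normalised counts in Ctrl crypts and at 328486 and 214980 in Gli1-PtgscKO crypts. Replicate 1 of the mutant was the highest library, and replicate 2 lay between the controls. The log2 fold change was 0.29 ± 0.59 (SE, n = 2 and 2).

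*Mmp7* was read at 2810 and 2318 normalised counts in Ctrl and at 4425 and 2340 in Gli1-PtgscKO crypts. Again the first mutant library was the highest and the second lay within the Ctrl range. The log2 fold change was 0.33 ± 0.35 (SE).

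The 4 defensins diverged most between the mutant libraries. *Defa24*, the most abundant of them, was read at 89408 and 76982 normalised counts in Ctrl and at 221569 and 67097 in Gli1-PtgscKO crypts. *Defa30* was read at 26185 and 20662 in Ctrl and at 73787 and 18767 in the mutant. Each stood highest in one mutant library, at 2.66-fold of the Ctrl mean for *Defa24* and 3.15-fold for *Defa30*, and lay below both controls in the other, at 0.806-fold and 0.801-fold. *Defa22* was read at 15123 and 15536 in Ctrl and at 44568 and 12843 in the mutant, the same arrangement around controls that differed little from each other. *Defa17* was read at 11325 and 9641 in Ctrl and at 19722 and 8665 in the mutant, with a smaller excess of 1.88-fold in replicate 1. The log2 fold changes were 0.56 ± 0.64 for *Defa24*, 0.68 ± 0.63 for *Defa30*, 0.64 ± 0.57 for *Defa22* and 0.32 ± 0.42 for *Defa17* (SE). Summing near copies left this unchanged in direction: *Defa22* with *Defa21* differed from the Ctrl mean by 1.55 on the log2 scale in replicate 1 and by -0.30 in replicate 2, and *Defa17* with *Defa3* by 0.90 and -0.30.

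*Itln1* was read at 85152 and 78686 normalised counts in Ctrl and at 122198 and 69733 in Gli1-PtgscKO crypts, so the mutant libraries lay on either side of the controls. *Ang4* was read at 27700 and 21517 in Ctrl and at 28240 and 22450 in the mutant, and was the member that differed least, with a log2 fold change of 0.04 ± 0.33 (SE). *Mptx2* was read at 12857 and 5589 in Ctrl and at 10766 and 9559 in the mutant. For *Mptx2* alone among the members the Ctrl libraries were the extremes, 1.20 apart on the log2 scale. Its paralog *Mptx1* was at 31.9 and 659 normalised counts in the same Ctrl libraries and at 436 and 310 in the mutant, and the low *Mptx1* library was the one high in *Mptx2*.

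The members' median log2 fold change was 0.32, beside -0.01 over all genes tested. Taken by library, the median difference from the Ctrl mean was 0.79 in Gli1-PtgscKO replicate 1 and -0.23 in replicate 2, beside 0.00 and -0.01 over all genes. In replicate 1, 8 of 9 members lay above both controls (41.8% of all genes did), and in replicate 2, 5 of 9 lay below both controls (35.6% of all genes did). Without replicate 1 the members' median was -0.23 and 0 of 9 passed. Without replicate 2, with the lone mutant library taken to vary like the controls, it was 0.79 and 5 of 9 passed an adjusted p of 0.05 (limma-trend), as did 1987 of all genes. The difference in crypts was therefore decided by which mutant library was used.

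The 2 mutant libraries also differed by transcript length. In replicate 1 the median log2 difference from Ctrl was 0.84 for the shortest of 10 equal bins of genes by transcript length (303 to 1437 bases) and -0.65 for the longest bin, while in replicate 2 it was -0.15 and 0.10. All 9 members belong to the shortest bin, at 397 to 1263 bases. The 4 defensins, at 397 to 419 bases, had a median difference of 1.48 in replicate 1, and the 40 other genes of up to 500 bases had one of 1.42. Of these 40, 13 were other alpha-defensins, some of which share sequence with members, and the remaining 27 had a median of 1.54. The 5 longer members had a median of 0.58, and the 849 other genes of 600 to 1300 bases had one of 0.85. In replicate 2 the defensins were at -0.29 beside -0.14 for genes of their length, and the longer members at -0.12 beside -0.15.

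**Figure D2:**
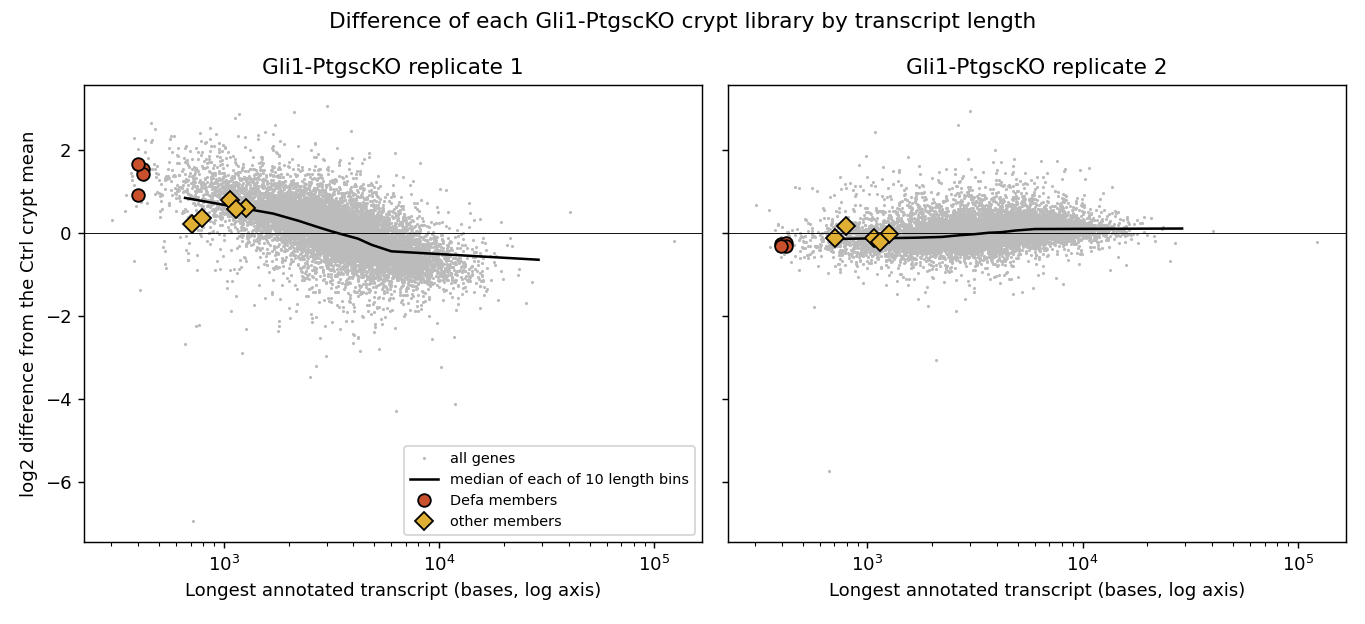
Log2 difference of each Gli1-PtgscKO crypt library from the Ctrl crypt mean (y axis) against the length of the longest annotated transcript in bases (log axis), with all genes as grey points, the median of each of the 10 bins by length as a line and the members as large symbols. In replicate 1 the members lie at 0.21 to 1.67, with *Defa22*, *Defa24* and *Defa30* highest. *Ang4* (709 bases, 0.21) and *Mptx2* (794 bases, 0.34) lie below the longer *Itln1*, *Lyz1* and *Mmp7*, against the rise toward short transcripts. In replicate 2 the members lie between -0.31 and 0.17.

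When the trend with length was removed from each library, the differences of the members in replicate 1 came to between -0.85 and 0.21 and those in replicate 2 to between -0.12 and 0.32. The fitted fold changes then ran from -0.41 to 0.05 on the log2 scale with a median of -0.06, beside 0.00 over all genes. *Defa22* came to 0.03 ± 0.18, *Defa24* to -0.06 ± 0.22 and *Defa30* to 0.05 ± 0.20 (SE), with smaller errors than before. *Lyz1* came to 0.01 ± 0.28 and *Mmp7* to 0.01 ± 0.15. The lowest values were those of *Ang4*, at -0.41 ± 0.31, and of *Defa17*, at -0.31 ± 0.20. *Itln1* and *Defa17*, 2 of the 9 members, then lay below both controls in both mutant libraries (14.8% of all genes did), and 0 of 9 lay above both (12.9% of all genes did). No member had an adjusted p below 0.9999 (limma-trend). Correction for length and GC content, added after the data were seen, gave -0.36 to 0.06.

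**Figure D3:**
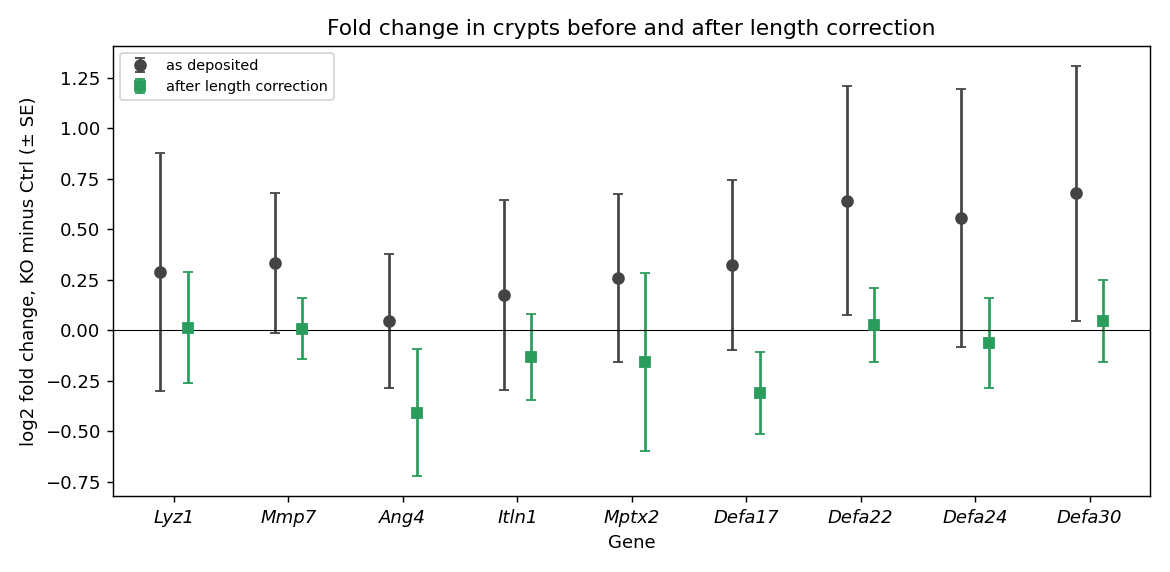
Log2 fold change of Gli1-PtgscKO against Ctrl crypts for each member, as deposited (circles) and after correction for transcript length (squares), with bars for the SE (n = 2 and 2 libraries). The positive values of *Defa22*, *Defa24* and *Defa30*, 0.56 to 0.68 as deposited, come to between -0.06 and 0.05 after correction.

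Genes that work with the members were read from lists. Of 54 other alpha-defensin genes and gene models, 16 were listed in crypts, and 0 passed either threshold. All 16 were above both controls in replicate 1, with a median log2 difference of 1.28, and 11 were below both in replicate 2, with a median of -0.22, the same arrangement as the members. *Gm14851*, the most abundant, was read at 48192 and 38412 normalised counts in Ctrl and 80807 and 33995 in the mutant. *AY761184* gave 42349 and 32436 in Ctrl and 68408 and 28835 in the mutant. After length correction the list's median fold change was -0.10 on the log2 scale, down from 0.55.

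Of 17 other Paneth cell genes, not all of them secreted or particular to these cells, 12 were listed. Among these 12, 0 passed either threshold, and the median log2 fold change was 0.22. *Pnliprp2*, a lipase-related protein, was read at 4824 and 5803 normalised counts in Ctrl and 7806 and 4833 in the mutant. *Lyz2*, the lysozyme of macrophages and the paralog of *Lyz1*, was read at 779 and 415 in Ctrl and at 1074 and 1595 in the mutant. Both mutant libraries were thus above both controls for *Lyz2* (9.73% of all genes did so), with a log2 fold change of 1.20 ± 0.38 (SE, adjusted p = 0.9996, limma-trend). Of 11 macrophage and immune markers 8 were listed, with a median log2 fold change of 0.04 and a range of -0.55 to 1.74. Of these 8, *Lyz2* and *C1qb* lay above both controls in both mutant libraries and the other 6 overlapped. The summed level of the 8, *Lyz2* included, was 2049 and 1665 normalised counts in Ctrl and 1914 and 3566 in the mutant. By library their median log2 difference from the Ctrl mean was -0.51 in replicate 1 and 0.85 in replicate 2. *Lyz2* itself stood at 0.92 and 1.49. The part of macrophages and other immune cells in the *Lyz2* values was not tested.

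Regulators of Paneth cell fate gave no call. All 18 listed genes for specification and Wnt response stayed under both thresholds, with a median log2 fold change of -0.01. By library their median difference was -0.04 in replicate 1 and 0.02 in replicate 2, and the median transcript of this list had 3925 bases against 709 for the members. *Fzd5*, the Wnt receptor needed for Paneth cell maturation, was read at 5245 and 5839 normalised counts in Ctrl and 3953 and 5887 in the mutant. *Axin2*, a target of Wnt signals, gave 1685 and 2202 in Ctrl and 1879 and 2316 in the mutant, and *Xbp1*, which supports secretory cells, gave 4935 and 4720 in Ctrl and 5648 and 4542 in the mutant. Of 18 genes for granule handling, autophagy and bacterial sensing 16 were listed, 0 passed and their median was -0.03. *Hspa5*, an endoplasmic reticulum chaperone, stood highest among them at 14907 and 11593 in Ctrl and 16116 and 13240 in the mutant.

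Goblet cells, another granule-bearing lineage, were read from 11 listed markers with a median log2 fold change of 0.15. One of them, *Muc2*, the main secreted mucin, passed the threshold of the study, with 19796 and 15809 normalised counts in Ctrl and 8235 and 7934 in Gli1-PtgscKO crypts and a log2 fold change of -1.13 ± 0.28 (SE, adjusted p = 0.9996, limma-trend). No goblet marker passed the adjusted threshold. Genes that differ along the intestine also varied between the libraries: the summed level of the 5 listed ileum-high genes was 5924 and 9259 normalised counts in Ctrl and 12228 and 4842 in the mutant, and that of the 8 duodenum-high genes was 8622 and 10150 in Ctrl and 8021 and 11141 in the mutant. Without *Fabp6*, a 479-base transcript read at 1321 and 2663 in Ctrl and 5470 and 1015 in the mutant, the ileum-high sum was 4603 and 6597 in Ctrl and 6758 and 3827 in the mutant. All 5 ileum-high genes lay below both controls in replicate 2 (35.6% of all genes did). In replicate 1, 3 of them lay above both controls (41.8% of all genes did). Of the 8 duodenum-high genes *S100g* alone passed the threshold of the study. It was read at 424 and 488 normalised counts in Ctrl and at 869 and 958 in the mutant. Its log2 fold change was 1.003 ± 0.26 (SE, adjusted p = 0.9996, limma-trend). The part of intestinal position in the members' values was not tested.

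In villi, where Paneth cells are not normally found, the 9 genes took 0.0560% (95% Wilson interval 0.0548 to 0.0572%) of reads in Ctrl, 0.107% (0.105 to 0.108%) in Gli1-PtgscKO replicate 1 and 0.0693% (0.0679 to 0.0707%) in replicate 2. With 1 distinct Ctrl library no test was made, and each value is given as measured. The scarcest member, *Mmp7*, rested on 41 reads in Ctrl, 2.81 CPM with an exact Poisson interval of 2.02 to 3.81, and on 108 and 56 reads in the mutant, at 6.86 CPM (5.62 to 8.28) and 4.16 CPM (3.14 to 5.40). These intervals too cover counting error only and do not compare the genotypes.

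The 5 members that are not defensins lay above Ctrl in both mutant villus libraries (43.7% of all genes did). *Lyz1* was read at 2274 normalised counts in Ctrl and 4165 and 2539 in the mutant. *Itln1* gave 975 in Ctrl and 1418 and 1028 in the mutant, and *Mptx2* gave 108 in Ctrl and 199 and 118 in the mutant. The excess was 1.15- to 1.85-fold in replicate 1 and 1.03- to 1.14-fold in replicate 2, so the larger part of it rested on 1 library. *Defa22* lay below Ctrl in both, at 1239 in Ctrl and 1105 and 1148 in the mutant (44.2% of all genes did so). *Defa17*, *Defa24* and *Defa30* lay above Ctrl in replicate 1 and below it in replicate 2, for example *Defa24* at 3182 in Ctrl and 3717 and 2674 in the mutant. These directions depended on the scaling: on CPM in place of the normalised counts, 8 of 9 members, *Defa22* with them and *Defa17* excepted, lay above Ctrl in both mutant libraries, as did 62.6% of all genes, and the median of all genes shifted to 0.41 in replicate 1 and 0.31 in replicate 2 on the log2 scale. The members' medians on CPM were 0.99 and 0.41, so 5 of 9 members were above that shift in both libraries.

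Length again separated these libraries, but the other way: in the shortest of 10 bins the median log2 difference from Ctrl was -0.83 in replicate 1 and -0.74 in replicate 2, and in the longest bin 0.90 and 0.81. The 158 other genes of up to 500 bases had medians of -1.52 and -1.13 (-1.59 and -1.25 without the 10 alpha-defensins among them), whereas the 4 defensins had 0.24 and -0.20. The 1065 other genes of 600 to 1300 bases had medians of -0.79 and -0.71, whereas the 5 longer members had 0.79 and 0.13. After length correction all 9 members lay above Ctrl in both mutant libraries (41% of all genes did), with medians of 1.51 and 0.90 beside -0.02 and -0.02 over all genes. *Lyz1* then differed by 1.51 and 0.73, *Defa30* by 2.05 and 1.14 and *Defa22* by 1.32 and 1.13. The 158 short genes spread widely after correction, with quartiles of -1.67 and 1.07 in replicate 1.

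**Figure D4:**
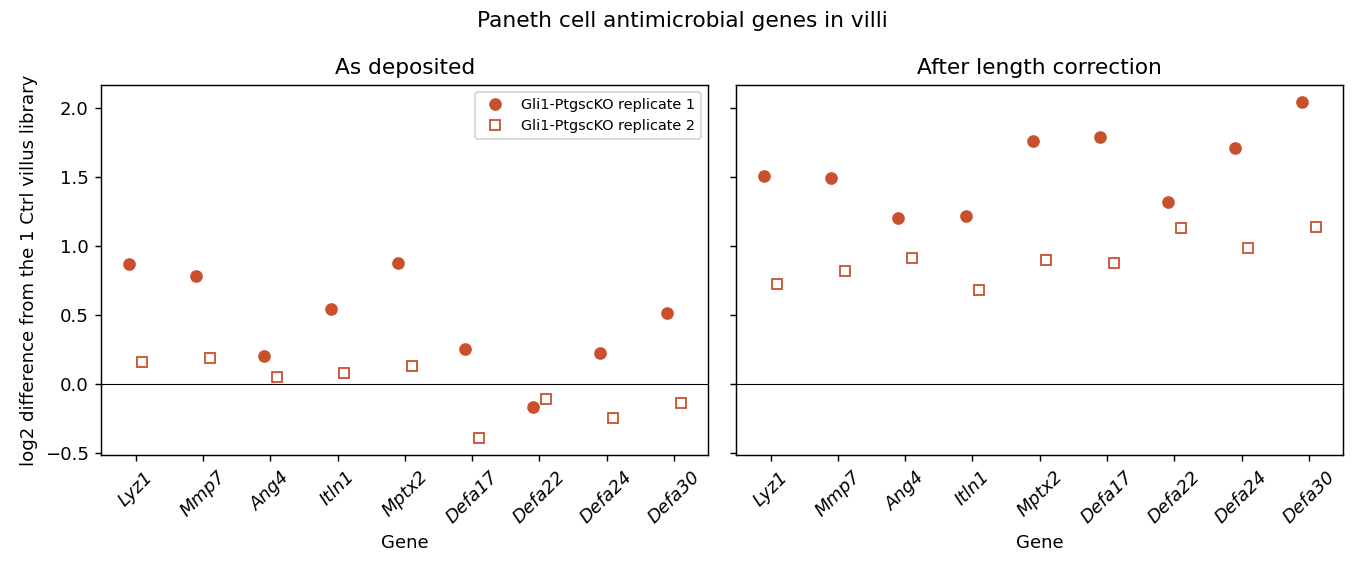
Log2 difference of each Gli1-PtgscKO villus library from the single distinct Ctrl villus library, for each member, as deposited (left) and after correction for transcript length (right). As deposited the values run from -0.40 to 0.88, and after correction all lie above 0, from 0.68 to 2.05.

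Other crypt genes were read in villi in the same way. As deposited, 1 of the 12 other alpha-defensins listed there lay above Ctrl in both mutant libraries and 8 lay below it in both, with medians of -0.08 and -0.22. After length correction 12 of 12 lay above Ctrl in both, with medians of 1.38 and 1.01. Of the 9 stem cell markers 7 lay above Ctrl in both, as deposited and after correction, with medians of 0.85 and 0.52 after it. Their summed level was 3109 normalised counts in Ctrl and 5296 and 4216 in the mutant. *Olfm4*, the most abundant of them, was at 100 CPM in Ctrl and 254 and 172 in the mutant. How far crypt material in the villus preparations set the members' values there was not tested. The 7 ileum-high genes listed in villi summed to 29363 normalised counts in Ctrl and 10017 and 13068 in the mutant. As deposited 6 of them lay below Ctrl in both mutant libraries (44.2% of all genes did) and 1 above it. After length correction 5 lay below and 2 above. The 8 duodenum-high genes summed to 15222 in Ctrl and 10816 and 15073 in the mutant. The part of intestinal position here was not tested either.

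The comparison of crypts with villi asked how strictly each member was kept to the crypt. As the tables were normalised separately, CPM was used, and no test was made. All 9 members were over 10 times higher in each Ctrl crypt library than in Ctrl villi, as were 7.2% of the 11227 genes in both tables. The members' median log2 difference was 5.17, beside 1.07 over all genes in both tables.

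The 4 defensins and the 5 other members fell into separate ranges by this ratio in Ctrl. *Lyz1* was at 12933 and 10502 CPM in Ctrl crypts and at 135 in Ctrl villi, an 87.1-fold difference of the means. *Mptx2*, *Itln1* and *Ang4* followed at 78.0-, 76.0- and 74.6-fold, and *Mmp7* at 48.9-fold. The ratio of *Mptx2* was 110-fold with Ctrl crypt replicate 1 and 46.1-fold with replicate 2, so the order among these 5 is not settled. *Defa24* was at 4870 and 4049 in Ctrl crypts and 188 in Ctrl villi, 23.7-fold, with *Defa30* at 23.6-fold and *Defa17* at 21.7-fold. *Defa22* was at 824 and 817 in Ctrl crypts and 73.4 in Ctrl villi, 11.2-fold, the lowest of the members. In Ctrl all 4 defensins thus lay below all 5 other members. *Defa22* summed with *Defa21* gave 12.1-fold, and *Defa17* summed with *Defa3* gave 21.6-fold.

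**Figure D5:**
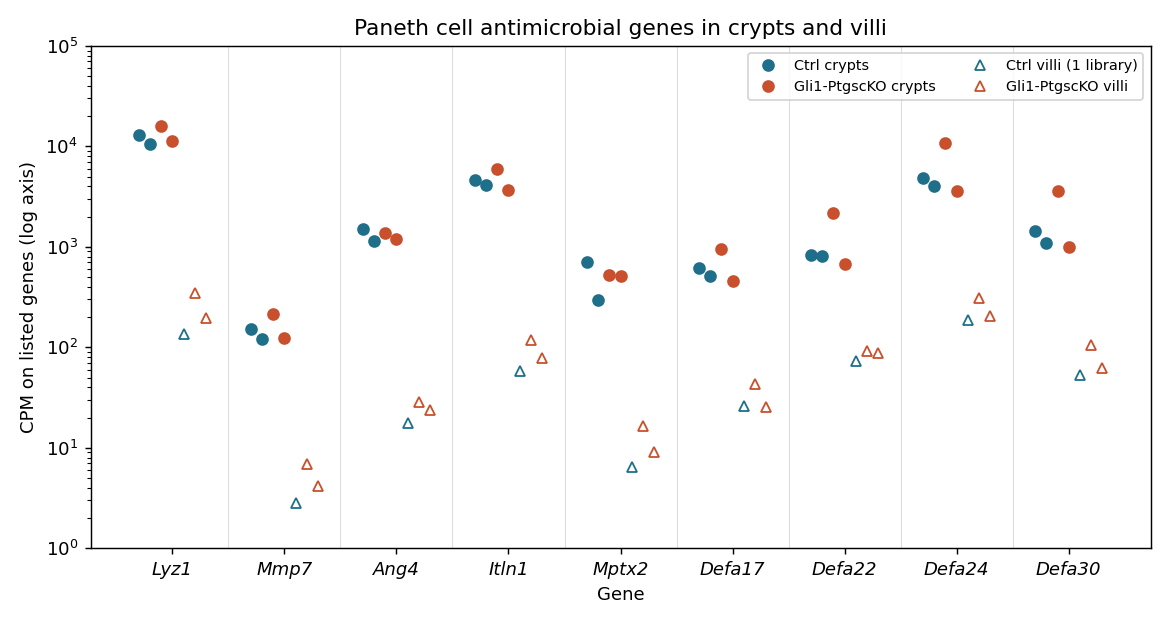
CPM (counts scaled to 1000000 reads on listed genes, log axis) of each member in the 4 crypt libraries (filled circles) and the 3 distinct villus libraries (open triangles), coloured by genotype. Crypt values exceed villus values for every gene. By the Ctrl means the gap is widest for *Lyz1*, at 87.1-fold, and narrowest for *Defa22*, at 11.2-fold, though single libraries differ in this order.

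The 12 other alpha-defensins in both tables spanned 8.86- to 60.2-fold, with a median of 16.8-fold. *Defa21*, the near copy of *Defa22*, was at 13.0-fold and *Defa2* and *Defa20* at 12.6- and 12.4-fold, while *AY761184* and *Gm14851*, with transcripts of 503 and 351 bases, were at 60.2- and 54.4-fold. Stem cell markers spanned 5.20- to 87.8-fold with a median of 21.8-fold. In Gli1-PtgscKO mice the ratio of crypt to villus means was 50.7-fold for *Lyz1*, 49.1-fold for *Itln1* and 49.2-fold for *Ang4*. It was 28.0-fold for *Defa24*, 27.1-fold for *Defa30*, 20.7-fold for *Defa17* and 15.9-fold for *Defa22*, with *Mmp7* at 30.9-fold and *Mptx2* at 40.4-fold. By these means the 4 defensins lay below the 5 others, but single libraries did not keep that order. Between any mutant crypt and any mutant villus library the ratio ran from 11.5- to 52.6-fold for *Defa24* and from 18.1- to 51.9-fold for *Mmp7*, ranges that overlapped. In the libraries numbered 1, *Defa24* was at 35.0-fold and *Defa30* at 33.8-fold, above *Mmp7* at 31.5-fold and *Mptx2* at 31.8-fold.

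The composition within a library was compared as well. *Itln1* stood at 32.4 to 39.4% of the *Lyz1* reads in the 4 crypt libraries and at 34.1 to 42.9% in the 3 villus libraries, ranges that overlapped. *Defa22* stood at 5.97 to 13.6% in crypts and at 26.5 to 54.5% in villi, and *Defa24* at 31.2 to 67.5% and 89.2 to 140%, with no overlap for either. Together the 4 defensins made up 25.2 to 42.1% of the members' reads in crypts and 51.6 to 60.9% in villi. Length correction over the genes in both tables raised the crypt-to-villus difference of every member and left *Defa22* the lowest, at 5.93 on the log2 scale. *Defa17*, *Defa24* and *Defa30* rose from 4.38, 4.55 and 4.52 to 6.90, 7.01 and 7.04, and *Lyz1* from 6.43 to 7.55. The gap between *Lyz1* and these defensins was thus smaller after correction, and the shares of reads above were not corrected for length. *Mmp7* came to 6.54 and the other 4 members, *Lyz1* with them, to 7.49 (*Itln1*) or more. After correction *Mmp7* was therefore the one other member that fell among the defensins.

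Across the 7 distinct libraries the 5 genes whose centred profile lay nearest to the mean profile of the members, among 11218 other genes in both tables, were *Defa29*, *Defa26*, *Gm15292*, *Gm14851* and *Pnliprp2*. Their Euclidean distances were 0.39, 0.49, 0.65, 0.67 and 0.73 on the log2 scale. All 5 belong to the lists of alpha-defensins and other Paneth cell genes. The members themselves lay at 0.23 (*Mmp7*) to 1.98 (*Defa22*), so these 5 genes were nearer to the mean profile than 8 of the 9 members, and the profile is mainly the contrast of crypts with villi.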

How the data were processed

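Crypt and villus epithelium of Ctrl and Gli1-PtgscKO mice was sequenced in bulk, 2 samples per group. The authors aligned reads with STAR to mm10 and used DESeq2; the counting program, its strand setting and annotation are not given in the sources used here. The deposited values are a signal, read counts divided by DESeq2 size factors, from which whole reads were recovered for 100% of values (tolerance 0.001 reads). The labels name a NEBNext library kit and the study's methods an Ovation kit. Columns of the authors' own comparisons (fold changes and p-values) were not used. Crypts were compared with limma-trend (limma 3.58.1) on log2(value + 1), mean of at least 1, Benjamini-Hochberg over all genes; fold changes are on that scale and p-values measure only the spread between these samples. edgeR 4.0.16 and DESeq2 1.42.0 were run on recovered reads. Length correction subtracted a lowess trend (span 0.3) on log2 length of the longest GENCODE M21 transcript (11546 of 11554 crypt genes). The fit was tested on simulated data. The members and lists were chosen with earlier results of these data known. Beside the 9 members, genes were named as the 4 most abundant or fewer of each list, those passing a threshold, the 5 nearest in profile, and, chosen after their values were seen, near copies of members, *C1qb*, *Fabp6* and crypt markers in villi.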

Additional observations from a re-analysis of the deposited data

How the results depend on the processing

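Member counts past either threshold in crypts were 0 in all alternatives except without Gli1-PtgscKO crypt replicate 2, so that leaving out single replicates gave 0 to 5 members past an adjusted p of 0.05 and 0 to 3 past the threshold of the study. For all genes the main counts were 0 and 21; leaving out single replicates gave 0 to 1987 and 18 to 881, DESeq2 gave 11 and 65, and the replicate block gave 34 and 78. Same-numbered libraries shared only a number, with deviations correlated at r = 0.25 across genes, and under the block 0 members passed. Leaving out single libraries moved the members' median fold change in crypts between -0.23 and 0.79, and gave ranges of -0.018 to 0.59 for *Lyz1*, -0.13 to 0.79 for *Mmp7*, -0.14 to 0.23 for *Ang4*, -0.23 to 0.58 for *Itln1*, -0.34 to 0.86 for *Mptx2*, -0.27 to 0.92 for *Defa17*, -0.26 to 1.54 for *Defa22*, -0.31 to 1.42 for *Defa24* and -0.31 to 1.67 for *Defa30*. Reversed signs also came with library size scaling for *Ang4* (-0.028), and with length correction, with or without the replicate block, for *Ang4* (-0.41), *Itln1* (-0.13), *Mptx2* (-0.16), *Defa17* (-0.31) and *Defa24* (-0.061); with GC content added these were -0.36, -0.13, -0.12, -0.29 and -0.043. In villi the members' median difference was 0.19, and 0.61 on CPM, 1.23 after length correction and 0.05 to 0.51 without single mutant libraries. The median difference of Ctrl crypts from Ctrl villi was 5.17, and 5.55 with a pseudocount of 0.1, 7.04 after length correction and 5.01 to 5.34 without single crypt libraries. The causes were not tested. Depth limits mainly *Mmp7* in villi.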
